A study of Mus musculus with 6 samples.

Results

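The genes described here encode the ATP-dependent chromatin remodelers of the BAF (mammalian SWI/SNF), ISWI and CHD families, measured in mouse hippocampal neurospheres with and without a conditional Fgf13 mutation. The list was chosen by gene name and holds 37 genes, each found as 1 row among the 54532 gene rows of the deposited table. Neurospheres are floating spheres of cultured neural progenitor cells. They were grown from the hippocampus of postnatal day 0 C57BL/6 mice in medium with 20 ng/ml FGF-2 and 20 ng/ml EGF, and were collected on day 7. The 3 CTRL libraries came from mice labelled hGFAPCre+, Fgf13+/y, and the 3 FGF13cko libraries from mice labelled hGFAPCre+, Fgf13 flox/y. Both groups thus carried the hGFAPCre transgene, a Cre recombinase under the human GFAP promoter, so cells that did not express it would keep an intact gene. Cells of 1 mouse were plated in 2 wells, and no label says whether each library was a separate mouse, so the p-values measure the spread between these libraries.

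Remodelers use ATP hydrolysis to slide, evict or space nucleosomes and so set which DNA is open to transcription factors. BAF complexes are built from a SMARCA2 or SMARCA4 ATPase, a core scaffold and exchangeable subunits. In the mouse brain, a progenitor form containing ACTL6A, PHF10 or DPF2, and SS18 gives way to a neuronal form containing ACTL6B, DPF1 or DPF3, and SS18L1 as cells leave the cell cycle. ISWI complexes space nucleosomes evenly. CHD proteins carry paired chromodomains and fall into subfamilies I, II and III, and several are mutated in human neurodevelopmental disorders.

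Values are given as normalized counts, which are read counts over a size factor specific to each library. Library depth was 22191718 to 24531400 assigned reads. Fgf13 itself, the targeted gene, stood at 480, 651 and 276 normalized counts in CTRL 1, 2 and 3 and at 201, 239 and 332 in FGF13cko 1, 2 and 3, so the groups overlapped (log2 difference -0.81, limma adjusted p = 0.134). Mitochondrial genes took 4.14% and 4.05% of the counts in both replicate 3 libraries, against 1.46% to 2.36% in the others. In bulk samples, fewer cells of a type and less RNA per cell cannot be told apart. The neuron marker list summed to 22356 to 30970 in CTRL and 40316 to 55471 in FGF13cko, with 8 of 12 members higher by limma. The neural progenitor list summed to 110680 to 122021 and 162643 to 175031, although 5 of its 10 members were lower and none higher. Of the G2/M cell cycle list, 4 of 12 members were lower, and its sum was 42594 to 59547 in CTRL and 25988 to 44687 in FGF13cko. No marker of any list was at 0 in all 6 libraries. Microglia (159 in each CTRL library against 304 to 479) and endothelial sums (46.5 to 92.6 against 171 to 292) were low but higher in FGF13cko. The same held for the mural and fibroblast sum (249 to 408 against 812 to 2391). Most of that FGF13cko sum was Rgs5 (659, 798 and 2267 in FGF13cko 1, 2 and 3). Rgs5 and Col1a2 were called higher, whereas Col1a1 had a lower mean in FGF13cko (31.1 against 72.5 in CTRL). Oligodendrocyte lineage sums (49312 to 73610 against 58741 to 75082) and astrocyte sums (31724 to 63242 against 35986 to 63153) overlapped between the groups. The oligodendrocyte sum was mostly Olig1 and Olig2 (CTRL means 32365 and 18634), which were not called. Of the 9 genes in that list, 2 were called lower, Sox10 (log2 change -1.84, limma adjusted p = 0.0148) and Gpr17 (-2.46, limma adjusted p = 0.0129). Of the 7 astrocyte genes, Aldh1l1 was called higher. The part of these other cell types in the results below was not tested.

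All 37 remodeler genes were expressed, with CTRL means from 192 (Actl6b) to 11683 normalized counts (Chd4), and all passed the filter on low values. Of these, 6 fell in FGF13cko: the BAF subunits Bcl7a, Phf10 and Brd9, and the CHD genes Chd2, Chd6 and Chd7, by log2 changes of -0.48 to -0.83. No member rose past the threshold, which was a limma adjusted p of 0.05. The neuronal BAF subunit Actl6b and the neuronal remodeler Chd5 were higher in every FGF13cko library than in any CTRL library, without passing the test. The ATPases, the core scaffold, the ARID subunits and the ISWI genes did not pass it in either direction.

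The count of members that fell, 6 of 37, was read against 7.08% of the 16852 genes tested that fell, and the count of members that rose, 0, against 7.55%. At an unadjusted p under 0.05, 9 members passed (the 6 that fell, and Actl6b, Chd5 and Chd3), or 24.3%, against 31.9% of all genes tested. Between-group separation was no more frequent among members than elsewhere. The groups did not overlap for 6 members in the lower direction and 2 in the higher direction, against 18.7% and 20.6% of all genes tested. The median absolute log2 change was 0.15 for the members and 0.36 for all genes tested, and the median signed changes were -0.01 and 0.02. The genes tested were not matched to the members on level. They include any with a mean of at least 10, whereas the lowest CTRL mean of a member was 192. With the replicate number as a block, the same 6 genes fell and 3 rose (Actl6b, Chd5 and Chd3), against backgrounds of 13.9% lower and 16.2% higher. DESeq2 on the recovered reads called the same 6 lower and called Actl6b and Chd5 higher, against backgrounds of 11.7% and 11.9%. By edgeR the same 6 were lower and 0 higher, against 7.86% and 7.06%. The authors' deposited table, at its adjusted p under 0.05, has 6 members lower and 2 higher, against 7.91% and 8.78% of its genes.

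**Figure D1:**
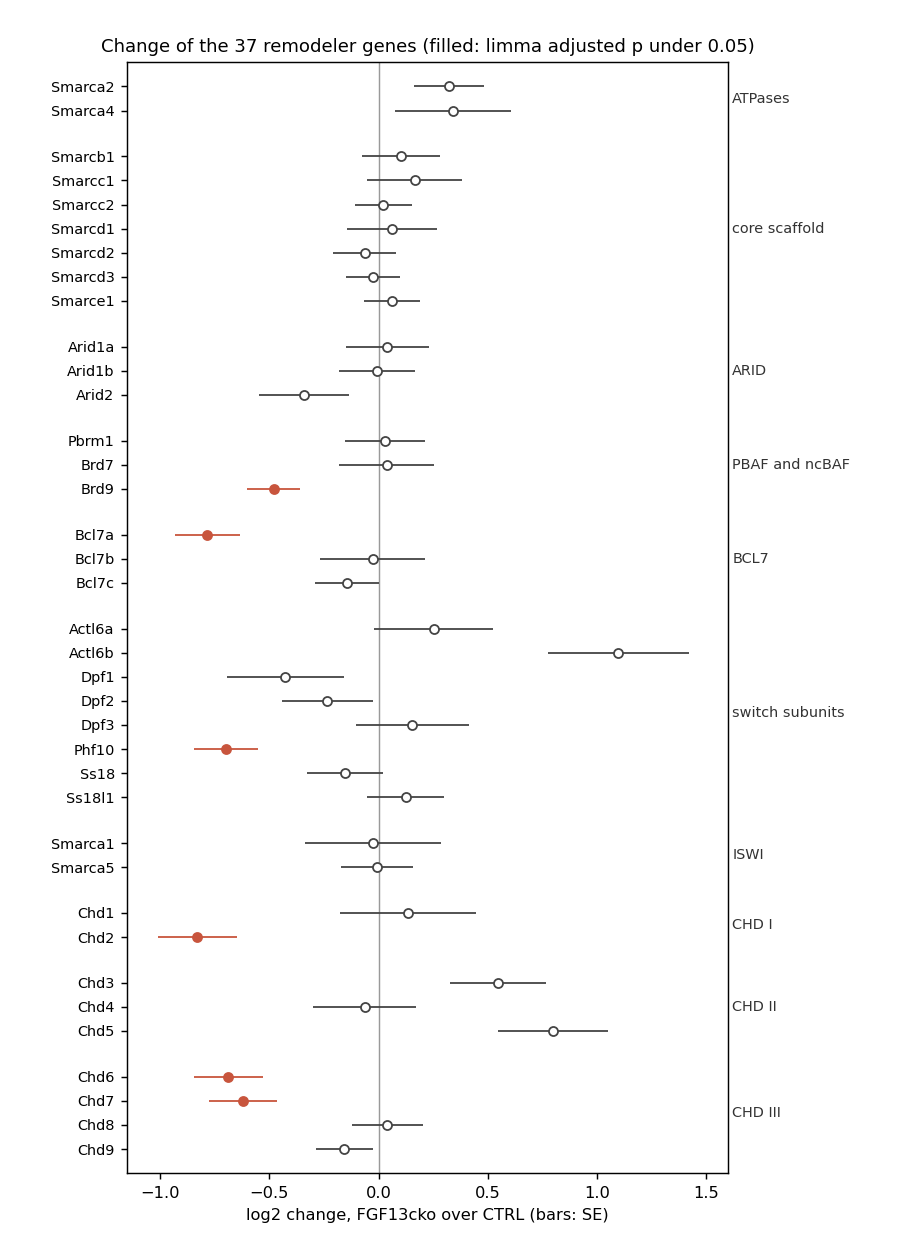
The log2 change of each of the 37 remodeler genes, FGF13cko over CTRL, with the standard error as a bar and genes ordered by role; filled points passed limma's adjusted threshold. The 6 filled points lie between -0.48 and -0.83, and Actl6b (1.10) and Chd5 (0.80) lie farthest to the right without passing.

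These calls rested on every library except CTRL 3. Leaving out CTRL 1, FGF13cko 2 or FGF13cko 3 left 0 members lower, while 2.02%, 1.64% and 2.93% of all genes tested still were. Without CTRL 2 only Bcl7a of the members was called lower (background 4.33%). Without FGF13cko 1, Bcl7a and Phf10 were called lower (3.74%) and Actl6b and Chd5 higher (4.58%). Without CTRL 3 there were 8 members lower, the same 6 with Arid2 and Dpf1 (12.9%), and 4 higher, Actl6b, Chd5, Chd3 and Smarca2 (13.4%). Without both replicate 3 libraries there were 9 lower, adding Dpf2 (18.4%), and the same 4 higher (18.9%). Each of the 6 genes kept its direction in all 6 of these fits, with log2 changes of -0.70 to -0.90 for Bcl7a, -0.62 to -0.80 for Phf10, -0.74 to -0.997 for Chd2, -0.60 to -0.80 for Chd6, -0.51 to -0.72 for Chd7 and -0.46 to -0.51 for Brd9.

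The BCL7 proteins are small accessory subunits of BAF complexes. Bcl7a (ENSMUSG00000029438, chromosome 5, 123343834 to 123374992, plus strand, GRCm38) stood at 2689, 2210 and 2926 normalized counts in CTRL 1, 2 and 3 and at 1580, 1486 and 1449 in FGF13cko 1, 2 and 3. Every FGF13cko library lay below every CTRL library, and the FGF13cko values were close together. Group means were 2608 ± 365 and 1505 ± 67.5 (SD, n = 3 per group), with a log2 difference of -0.78 (SE 0.15, limma adjusted p = 0.0145). Its paralogs were not called: Bcl7b was at 708 ± 212 and 672 ± 57.5, and Bcl7c at 1666 ± 130 and 1512 ± 180, neither past the test. The difference between paralogs was not itself tested.

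Of Pbrm1, Brd7, Brd9 and Arid2, genes of the other BAF forms, Brd9 passed. BRD9 is a bromodomain protein of the non-canonical BAF complex (ncBAF), whereas PBRM1, BRD7 and ARID2, and also PHF10 described below, belong to the polybromo form (PBAF). Brd9 (chromosome 13, 73937811 to 73960895, plus strand) was at 2312, 2254 and 2302 normalized counts in CTRL and at 1708, 1604 and 1615 in FGF13cko. The spread within each group was small, and a wide gap separated the groups. The change was -0.48 on the log2 scale (SE 0.12, limma adjusted p = 0.0361), a 1.39-fold lower level. Pbrm1 stood at 3089 ± 495 in CTRL against 3151 ± 479 in FGF13cko, and Brd7 at 2419 ± 567 and 2456 ± 429. Arid2 was at 3494, 3488 and 2337 in CTRL and at 2705, 2593 and 2002 in FGF13cko, where CTRL 3 sat among the FGF13cko values. Its log2 change was -0.34 (limma adjusted p = 0.292), and -0.53 without CTRL 3 (limma adjusted p = 0.0313).

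In both ATPase genes of BAF and in 6 of its 7 core scaffold genes, CTRL 3 differed from the other CTRL libraries by more than the groups differed. Smarca4, which encodes the ATPase BRG1, was at 7024, 7263 and 3773 normalized counts in CTRL and at 8085, 7791 and 6196 in FGF13cko. CTRL 3 was the low library, and FGF13cko 3 was the lowest of its group. The log2 change was 0.34 (SE 0.27, limma adjusted p = 0.417). Smarca2, which encodes the alternative ATPase BRM, was at 2437, 2356 and 3182 in CTRL and at 3016, 3442 and 3432 in FGF13cko, with CTRL 3 here the high library of its group. Its log2 change was 0.32 (limma adjusted p = 0.211), and 0.46 without CTRL 3 (limma adjusted p = 0.0217). The 7 core scaffold genes (Smarcb1, Smarcc1, Smarcc2, Smarcd1, Smarcd2, Smarcd3 and Smarce1) had log2 changes from -0.06 to 0.17, and none passed. Smarcc2, one of the paired BAF155/BAF170 scaffold genes, ranged only from 6071 to 6544 normalized counts over all 6 libraries. Smarcd3 ranged from 1349 to 1448, but 48.2% of its exon length overlaps Chpf2 on the opposite strand, and reads from this library kit carry no strand. Arid1a, which encodes the DNA-binding subunit of canonical BAF, was at 6367 ± 1288 and 6467 ± 620, and its paralog Arid1b at 1684 ± 337 and 1652 ± 48.5.

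**Figure D2:**
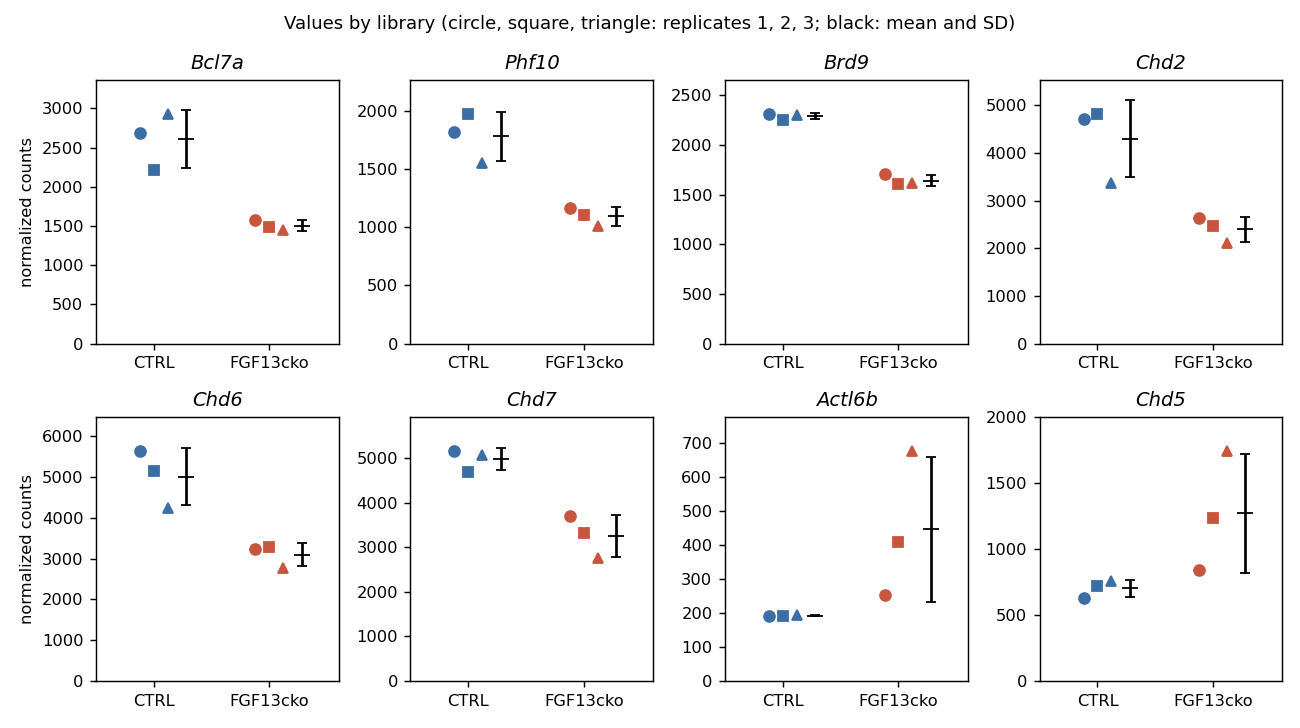
Normalized counts in each library for the 6 genes that fell and for Actl6b and Chd5, with the mean and SD of each group (n = 3) beside the points and every axis starting at 0. The groups do not overlap in any panel, and Actl6b and Chd5 spread from 252 to 674 and from 840 to 1741 in FGF13cko.

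The exchangeable subunits that mark the progenitor and neuronal forms are shown first by sequences tied to their known regulation in the mouse. The repressor REST binds a bipartite element through which it silences neuronal genes, and miR-9-3p (miR-9*) together with miR-124, which REST itself represses, targets Actl6a messenger RNA. Sequences are from RefSeq, GRCm38.p6, which covered promoters of 29 of the 37 genes, 250 bases before to 50 after each start, and the 3′ UTR comes from GENCODE M21 on the same assembly. In the Actl6b window (chr5:137553296-137553595, plus strand) the capitals mark the REST motif arms AGCACC and GGACAG, here read on the minus strand and 9 bases apart. The Actl6a window (chr3:32708296-32708595, plus strand) held neither arm. It lies downstream of the start of the gene in GENCODE (32706298), and sequence around that start is not shown. In miR-9-3p the capitals mark the seed, bases 2 to 8, and in the stretch of the Actl6a 3′ UTR (chr3:32726629-32726657, plus strand) they mark its complement AGCTTTA.
Actl6b promoter: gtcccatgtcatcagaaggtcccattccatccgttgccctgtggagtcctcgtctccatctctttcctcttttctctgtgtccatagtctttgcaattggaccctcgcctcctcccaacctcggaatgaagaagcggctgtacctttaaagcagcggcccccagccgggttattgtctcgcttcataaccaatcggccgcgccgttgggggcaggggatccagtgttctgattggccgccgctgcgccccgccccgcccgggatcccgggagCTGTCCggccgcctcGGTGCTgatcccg
Actl6a promoter: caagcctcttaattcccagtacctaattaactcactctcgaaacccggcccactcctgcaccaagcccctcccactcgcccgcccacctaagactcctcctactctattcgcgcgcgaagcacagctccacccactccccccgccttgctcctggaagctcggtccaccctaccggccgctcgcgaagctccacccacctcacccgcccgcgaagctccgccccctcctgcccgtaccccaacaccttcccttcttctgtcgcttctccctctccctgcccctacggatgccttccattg
miR-9-3p: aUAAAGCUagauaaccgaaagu
Actl6a 3′ UTR: tcaacgtctgtAGCTTTAgtacactcagg

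The arm AGCACC followed on the same strand, either strand, by GGACAG at most 20 bases later was found in 75 of 32851 promoter windows (0.228%). It was found in 1 of the 34 windows of member genes, that of Actl6b. The opposite order of the arms was not searched. A single arm is common: 16.2% of all windows hold AGCACC and 22.2% hold GGACAG, on either strand. The miR-9-3p seed match begins at base 38 of the 371-base Actl6a 3′ UTR. The same 7 letters occur in the 3′ UTR of 11.2% of 20981 genes, and of 6 of the 37 members (Arid2, Smarca2, Smarcc1, Smarcd2, Smarce1 and Actl6a). These matches are letters in a window and show no binding.

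Actl6b (ENSMUSG00000029712, chromosome 5, 137553517 to 137569582, plus strand), which encodes the neuronal actin-like subunit BAF53b, was at 190, 190 and 194 normalized counts in CTRL 1, 2 and 3. It was at 252, 409 and 674 in FGF13cko 1, 2 and 3. All FGF13cko libraries were above the tight CTRL values, and they differed widely among themselves. Group means were 192 ± 2.29 and 445 ± 213 (SD, n = 3 per group), with a log2 difference of 1.10 (SE 0.32) that did not pass (limma adjusted p = 0.0577). The gene passed with the replicate block (limma adjusted p = 0.0102) and by DESeq2 on the recovered reads (adjusted p = 0.00572). The authors' deposited table gives it a log2 difference of 1.09 and an adjusted p of 0.00405. The order of the FGF13cko libraries was also that of the neuron (40316, 46861 and 55471) and astrocyte sums (35986, 48425 and 63153). It was that of the mural and fibroblast sum (812, 961 and 2391, mostly Rgs5) and of the mitochondrial share (2.28%, 2.36% and 4.05%). Fgf13 itself had this order too (201, 239 and 332). The reverse order held for the G2/M (44687, 33344 and 25988), neural progenitor (175031, 167171 and 162643) and oligodendrocyte lineage sums (75082, 67826 and 58741). The microglia and endothelial sums had neither order.

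The progenitor counterpart of Actl6b is Actl6a, which encodes BAF53a (chromosome 3, 32706298 to 32726973, plus strand) and did not pass the test. It was at 1582, 1771 and 881 normalized counts in CTRL and at 1913, 1634 and 1333 in FGF13cko. CTRL 3 was far below its group, and the groups overlapped (log2 change 0.25, SE 0.27, limma adjusted p = 0.561). Mrpl47 on the opposite strand overlaps 11.6% of its exon length. Per kilobase of exon, Actl6b made up 9.87%, 8.91% and 16.7% of the pair in CTRL and 10.7%, 18.6% and 31.5% in FGF13cko. Actl6a thus remained the major form in every library. The log2 ratio Actl6b/Actl6a was 0.85 higher on average in FGF13cko, but CTRL 3 lay above FGF13cko 1, and the 2-sided exact permutation test gave p = 0.2 (0.4 adjusted over the 6 switch ratios).

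In the PHD-finger slot of BAF, PHF10 (BAF45a) and DPF2 (BAF45d) are the progenitor or broadly expressed forms, and DPF1 (BAF45b) and DPF3 (BAF45c) the neuronal ones. Phf10 (ENSMUSG00000023883, chromosome 17, 14945009 to 14961273, minus strand) fell. It was at 1822, 1972 and 1555 normalized counts in CTRL and at 1167, 1108 and 1007 in FGF13cko. The groups did not overlap, and replicate 3 was the lowest library in each. Group means were 1783 ± 211 and 1094 ± 81.1 (SD, n = 3 per group), with a log2 difference of -0.70 (SE 0.15, limma adjusted p = 0.0198). The gene 1600012H06Rik on the opposite strand overlaps 9.56% of the Phf10 exon length, and its own level was 752 ± 56.2 in CTRL against 916 ± 39.5 in FGF13cko (log2 change 0.29, limma adjusted p = 0.181).

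Neither neuronal PHD-finger gene passed the test. Dpf1 was at 1815, 1784 and 903 normalized counts in CTRL and at 1068, 969 and 1161 in FGF13cko. CTRL 3 was the lowest library of all, whereas CTRL 1 and 2 were above every FGF13cko library. The log2 change was -0.43 (limma adjusted p = 0.309), and -0.76 without CTRL 3 (limma adjusted p = 0.00414). Dpf3 was at 1457, 1461 and 768 in CTRL and at 1378, 1427 and 1147 in FGF13cko, where CTRL 1 and 2 lay above every FGF13cko library and CTRL 3 below. Its log2 change of 0.15 (limma adjusted p = 0.716) turned to -0.15 without that library. Dpf2 was at 3219, 3044 and 2056 in CTRL and at 2607, 2436 and 1949 in FGF13cko, a log2 difference of -0.23 (limma adjusted p = 0.473).

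Ratios within a library do not depend on how libraries are scaled. The log2 ratio Dpf3/Phf10 was -0.32, -0.43 and -1.02 in CTRL and 0.24, 0.37 and 0.19 in FGF13cko. Every FGF13cko library exceeded every CTRL library, by 0.85 on average, also without CTRL 3 (0.64). The exact permutation test gave p = 0.1, the smallest that 3 against 3 allows (0.3 adjusted over 6 ratios). This ratio is not separate from the Phf10 call. Phf10 changed by -0.70 and Dpf3 by 0.15 on the log2 scale, and by -0.80 and -0.15 without CTRL 3. Dpf3/Dpf2 did not overlap between the groups either, with a mean difference of 0.39 and the same p-values. Dpf1/Phf10 (0.27, exact p = 0.5), Dpf1/Dpf2 (-0.19, exact p = 0.4) and Ss18l1/Ss18 (0.28, exact p = 0.3) overlapped. Dpf1/Phf10 turned to -0.09 without both replicate 3 libraries. As shares of the 4 genes per kilobase, Phf10 made up 23.9%, 25.9% and 32.2% in CTRL and 20.4%, 20.2% and 20.7% in FGF13cko. Dpf3 made up 22.3%, 22.4% and 18.5% in CTRL and 28.03%, 30.2% and 27.4% in FGF13cko.

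SS18 and SS18L1 (CREST) are alternative subunits with a transactivation domain, SS18L1 being the neuronal one. Ss18 was at 2638, 2713 and 2101 normalized counts in CTRL and at 2621, 2193 and 1899 in FGF13cko. The groups overlapped (log2 change -0.15, limma adjusted p = 0.579). Ss18l1 was at 876, 926 and 641 in CTRL and at 802, 912 and 921 in FGF13cko, also overlapping (log2 change 0.12, limma adjusted p = 0.663). Of the 8 switch subunits, then, 1 progenitor form fell, and no neuronal form rose past the threshold. Among all genes tested, 7.08% fell and 7.55% rose.

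**Figure D3:**
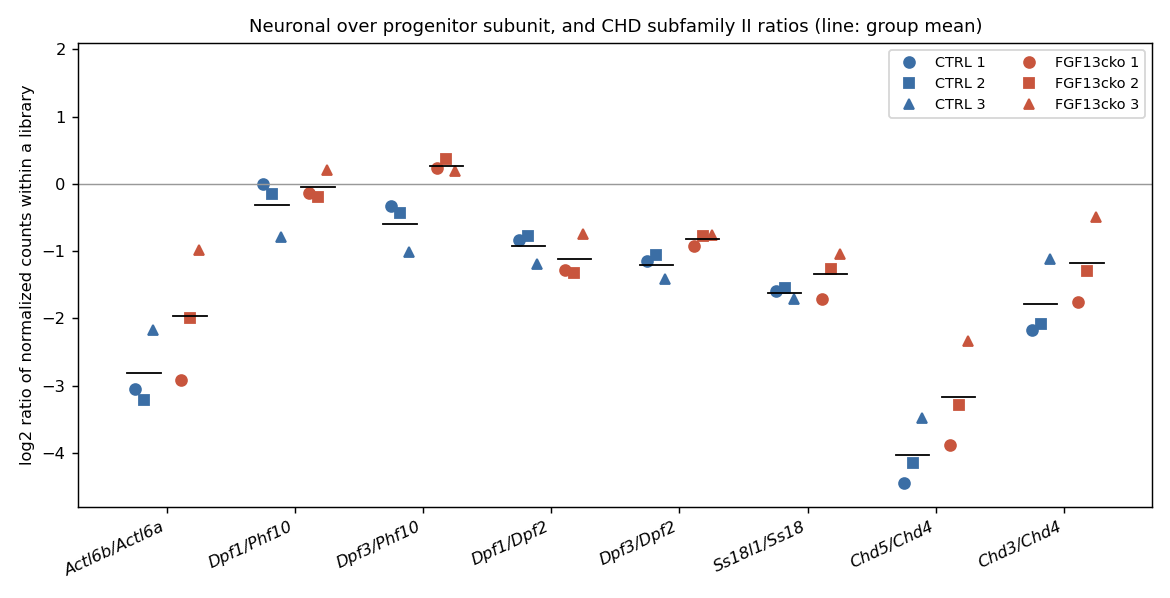
The log2 ratio of normalized counts within each library for the 6 switch pairs and for Chd5/Chd4 and Chd3/Chd4, with circles, squares and triangles for replicates 1, 2 and 3 and a line at each group mean. Only Dpf3/Phf10 and Dpf3/Dpf2 separate the groups, and in the Actl6b/Actl6a, Chd5/Chd4 and Chd3/Chd4 pairs replicate 3 is the highest library of both groups.

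Of the genes known to act on this switch, a host gene of miR-9-3p fell. Mir9-3hg (chromosome 7, 79500026 to 79534403), which hosts a copy of miR-9, was at 2894, 2623 and 3010 normalized counts in CTRL and at 1836, 1856 and 1469 in FGF13cko, a log2 difference of -0.73 (SE 0.15, limma adjusted p = 0.0185). It was not called without CTRL 1 (adjusted p = 0.0733), FGF13cko 2 (adjusted p = 0.0701) or FGF13cko 3 (adjusted p = 0.0646). Mir124a-1hg, a host gene of miR-124, was at 215, 213 and 226 in CTRL and at 221, 353 and 450 in FGF13cko (log2 change 0.59, limma adjusted p = 0.161). Libraries of this kind do not measure the mature miRNAs, and Mir9-1 was listed at 0 in every library. Rest was at 1932, 1817 and 1152 in CTRL and at 1335, 1260 and 965 in FGF13cko. CTRL 3 lay among the FGF13cko values, and the log2 change of -0.44 did not pass (limma adjusted p = 0.227), though it did with the replicate block (adjusted p = 0.0287) and without CTRL 3 (adjusted p = 0.0167). Its corepressor gene Rcor1 was at 1240 ± 298 and 1261 ± 171. Rcor2, another CoREST family corepressor (chromosome 19, 7267325 to 7275225), was at 6560, 5351 and 3493 in CTRL and at 1099, 1010 and 543 in FGF13cko. That log2 change of -2.55 (SE 0.32, limma adjusted p = 0.00378) exceeded those of all 37 remodeler genes in size and was called in all 6 fits with 1 library left out.

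CHD subfamily I holds CHD1 and CHD2, and CHD1 binds methylated lysine of histone H3 at active genes. Chd2 (ENSMUSG00000078671, chromosome 7, 73426638 to 73541830, minus strand) had the largest fall of the list. It was at 4706, 4813 and 3367 normalized counts in CTRL and at 2625, 2460 and 2101 in FGF13cko. All FGF13cko libraries were below CTRL 3, the lowest of its group. Group means were 4296 ± 806 and 2395 ± 268 (SD, n = 3 per group), with a log2 difference of -0.83 (SE 0.18, limma adjusted p = 0.0231). The long noncoding gene 1810026B05Rik shares 18.4% of the Chd2 exon length on the same strand, so reads there may be split between them. It was at 809, 985 and 1215 in CTRL and at 682, 639 and 667 in FGF13cko (log2 change -0.58, limma adjusted p = 0.061), and it was highest in CTRL 3, where Chd2 was low. Its paralog Chd1 was at 2341, 2553 and 1205 in CTRL and at 2670, 2244 and 1588 in FGF13cko, with replicate 3 lowest in both groups and no call.

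CHD subfamily II proteins are the ATPases of the NuRD complex, which joins remodeling to histone deacetylation. In the mouse, CHD4 is the form of progenitors, while CHD5 is mainly neuronal. Chd4 was the most abundant member, at 13687, 12864 and 8499 normalized counts in CTRL and at 12371, 12062 and 8780 in FGF13cko. It was low in replicate 3 of both groups, and its log2 change was -0.06 (limma adjusted p = 0.878). Chd5 (chromosome 4, 152338651 to 152390194, plus strand) was at 629, 722 and 757 in CTRL and at 840, 1240 and 1741 in FGF13cko. The groups did not overlap, but the log2 change of 0.80 (SE 0.25) did not pass (limma adjusted p = 0.0719), unlike with the replicate block (adjusted p = 0.00691) and by DESeq2 (adjusted p = 0.0195). Chd3 was at 3031, 3029 and 3938 in CTRL and at 3670, 4917 and 6261 in FGF13cko, where FGF13cko 1 lay below CTRL 3. Its log2 change of 0.55 (SE 0.22) did not pass either (limma adjusted p = 0.13), except with the replicate block (adjusted p = 0.015) or without CTRL 3 (adjusted p = 0.0411).

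As shares of the 3 genes per kilobase of exon, Chd4 held 80.1%, 78.7% and 66.0% in CTRL and 74.7%, 67.9% and 54.2% in FGF13cko. Its share in CTRL 3 was thus below that in FGF13cko 1 and 2. Chd5 held 3.08%, 3.69% and 4.92% in CTRL and 4.24%, 5.84% and 9.004% in FGF13cko. Within FGF13cko, Chd5 and Chd3 had the library order given above for Actl6b. Within CTRL, both were highest in CTRL 3, which had the lowest neuron sum of all libraries. CTRL 3 also had the highest astrocyte sum and the highest mural and fibroblast sum of its group.

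CHD subfamily III holds CHD6, CHD7, CHD8 and CHD9, of which CHD7 is mutated in human CHARGE syndrome and is needed for hippocampal neural stem cells in the mouse. Chd7 (ENSMUSG00000041235, chromosome 4, 8690406 to 8867659, plus strand) was at 5156, 4700 and 5082 normalized counts in CTRL and at 3700, 3314 and 2758 in FGF13cko. The groups were well separated, with CTRL 3 close to CTRL 1. Group means were 4979 ± 245 and 3257 ± 474 (SD, n = 3 per group), with a log2 difference of -0.62 (SE 0.15, limma adjusted p = 0.034). Chd6 (ENSMUSG00000057133, chromosome 2, 160946978 to 161109075, minus strand) was at 5630, 5149 and 4254 in CTRL and at 3241, 3277 and 2777 in FGF13cko. Again no library crossed between the groups (log2 change -0.69, SE 0.16, limma adjusted p = 0.0276). Chd8, a gene mutated in human autism, was at 2447 ± 380 and 2502 ± 218, and Chd9 at 1797 ± 46.4 and 1615 ± 128, neither past the test.

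Neither ISWI ATPase gene passed the test. Smarca5, which encodes SNF2H, the ISWI form of dividing cells, was at 3983 ± 487 in CTRL and 3968 ± 539 in FGF13cko. Smarca1, which encodes SNF2L, the form enriched in neurons of the mouse, was at 254, 292 and 464 normalized counts in CTRL and at 233, 302 and 464 in FGF13cko. Here the replicate number and not the genotype ordered the libraries, and replicate 3 was the highest in both groups.

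A difference of replicate 3 from the other replicates ran through much of the list, mostly in the lower direction, opposite to Smarca1. CTRL 3 was the lowest of the 6 libraries for 17 of the 37 members (45.9%, against 32.4% of all genes tested). The median log2 difference between replicate 3 and the mean of replicates 1 and 2 was -0.41 in CTRL and -0.22 in FGF13cko for the members, and -0.06 and -0.01 for all genes tested. In 26 members (70.3%, against 56.5% of all genes tested) the CTRL 3 difference was larger in size than the genotype change. Bcl7a, Brd9 and Chd7, among the 6 that fell, were not lower in CTRL 3 than in the other CTRL libraries on average, whereas Phf10, Chd2 and Chd6 were.

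**Figure D4:**
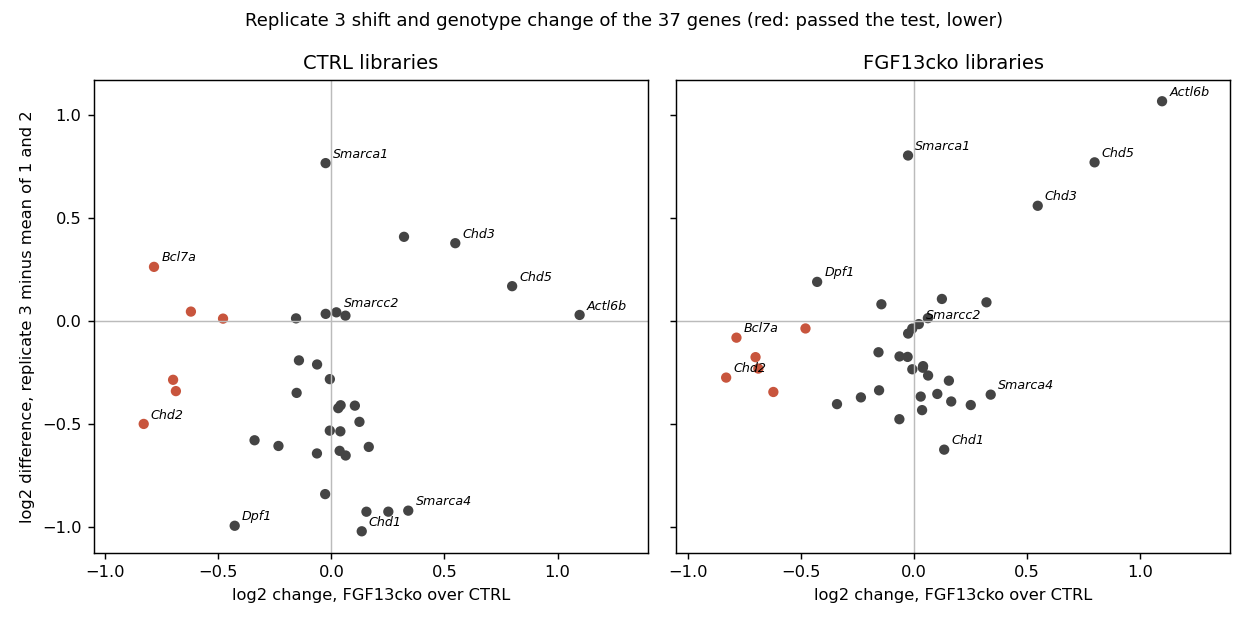
For each of the 37 genes, the log2 change between genotypes against the log2 difference of replicate 3 from the mean of replicates 1 and 2, in CTRL (left) and in FGF13cko (right). Most genes lie below 0 on the vertical axis in both panels, Smarca1 lies well above 0 in both, and Actl6b and Chd5 lie at 0.03 and 0.17 in CTRL and at 1.07 and 0.77 in FGF13cko.

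Levels between genes were compared per kilobase of exon. In CTRL the order began with Chd4 (1457 ± 348 normalized counts per kilobase), Smarcc2 (1132 ± 33.2) and Smarca4 (930 ± 301), followed by Arid1a (555 ± 112). Smarcc2 lay within the spread of Chd4 and within that of Smarca4. Chd4 was above Smarca4 in every CTRL library, and their means differed by more than the SD of either. It ended with Chd9 (77.6 ± 2.00), Chd5 (73.3 ± 6.94), Smarca1 (55.0 ± 18.3) and Actl6b (44.9 ± 0.54), each within the spread of its neighbour. In FGF13cko, Chd5 (133 ± 47.1) and Actl6b (104 ± 49.96) had higher means than Chd9 (69.8 ± 5.52) and Smarca1 (54.4 ± 19.4). Both Chd9 and Smarca1, however, lay within the spread of Actl6b. Smarca4 was above Smarca2, Smarcc2 above Smarcc1, Arid1a above Arid1b and Smarca5 above Smarca1 in both groups' means.

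Among 58 other remodeling genes, chosen by complex, 1 rose (1.72%) and 2 fell (3.45%), against 7.55% and 7.08% of all genes tested. Cecr2, which encodes a bromodomain partner of ISWI ATPases and is needed for neural tube closure in the mouse, was at 674, 538 and 641 normalized counts in CTRL and at 359, 293 and 238 in FGF13cko. That was the largest fall among these 58 genes (log2 change -1.07, SE 0.19, limma adjusted p = 0.0129), and it was not called without CTRL 1 (adjusted p = 0.0597) or FGF13cko 2 (adjusted p = 0.0668). Zranb3, a Snf2-type enzyme that remodels stalled replication forks, fell from 609 ± 71.8 to 363 ± 42.4 (log2 change -0.74, limma adjusted p = 0.0234). It was called only without CTRL 3 or FGF13cko 1 among the fits with 1 library left out, with adjusted p up to 0.114 (without FGF13cko 2), and missed the threshold without CTRL 1 (0.0614), CTRL 2 (0.063) or FGF13cko 3 (0.0781). Ino80c, a subunit of the INO80 remodeler, rose from 311 ± 74.4 to 645 ± 34.9 (log2 change 1.07, limma adjusted p = 0.014), a call lost without CTRL 1 (adjusted p = 0.0526) or FGF13cko 2 (adjusted p = 0.0729). None of the 12 NuRD partners of CHD3, CHD4 and CHD5 and none of the 5 BAF accessory genes passed. The median log2 change of the 58 genes was -0.04, and 9 of them (15.5%) did not overlap between the groups in the lower direction, with 1 (1.72%) in the higher, against 18.7% and 20.6%. With the replicate block 8 of the 58 fell and 1 rose, against 13.9% and 16.2%.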

How the data were processed

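RNA sequencing libraries were made with the NEBNext Ultra kit, per the labels' protocols, which does not mark strand. The submitters' processing notes name STAR, DESeq2 and mm10 without versions. The authors deposited 1 normalized value per gene and library, a signal that equals counts over a size factor: whole reads were recovered for 100% of values within 0.01 of a read. The authors' deposited table also holds a log2 fold change, a Wald score, a p-value and an adjusted p per gene.

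The main test was limma 3.58.1 (R 4.3.3, mean-variance trend, 2-sided) on log2(normalized count + 1) for the 16852 genes with a mean of at least 10, with Benjamini-Hochberg adjustment over them. Differences are on that log2 scale, and the added 1 shrinks those of weakly expressed genes. Switch ratios were tested by exact permutation. Alternatives were edgeR 4.0.16 and DESeq2 1.42.0 on the recovered reads, other settings, left-out libraries and a replicate block. Same-numbered libraries had residual correlations of 0.36, 0.20 and 0.54, all above 0.1. The numbers were therefore taken as pairs in the replicate block alone, and the main test used no pairing. No label says what a number marks, and CTRL 2 correlated more with FGF13cko 1 (0.33) than with FGF13cko 2. The fitting script was tested on simulated data. Coordinates are from GENCODE M21 (GRCm38, 1-based), found for all 37 members. Named genes were members past the threshold and the 8 switch subunits in full, others by level or range, and other remodeling genes past the threshold. The members and all lists were chosen with earlier results of these data known.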

Additional observations from a re-analysis of the deposited data

How the results depend on the processing

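Members higher, 0 in the main test, numbered 2 by DESeq2, 3 with the replicate block, 4 without both replicate 3 libraries and 0 to 4 with 1 library left out. Members lower, 6 in the main test, ranged from 0 to 8 with 1 library left out, and numbered 4 with no filter on low values, where Chd7 (limma adjusted p = 0.059) and Brd9 (0.0718) missed the threshold. Of the other remodeling genes, those lower numbered 4 by DESeq2, 8 with the block, 12 without both replicate 3 libraries and 0 to 11 with 1 left out, and those higher 2 without both and 0 to 1 with 1 left out. Over all genes, 1998 were higher and 1973 lower by DESeq2, 2723 and 2341 with the block, 3111 and 3034 without both replicate 3 libraries, and 193 to 2228 and 276 to 2145 with 1 left out. Fits with fewer libraries also have fewer residual degrees of freedom.

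Without both replicate 3 libraries, Dpf1/Phf10 reversed to -0.0856, Dpf3 to -0.0571 and Ss18l1 to -0.0748. With 1 library left out, the log2 change ranged from -0.0567 to 0.4467 for Actl6a, -0.2782 to 0.0948 for Chd4, -0.1536 to 0.3103 for Dpf3 and -0.0391 to 0.2256 for Ss18l1. The cause was not tested. No call of a member or ratio other than those of Actl6b, Chd5 and Chd3 changed with the replicate block. With 3 pairs, a switch ratio cannot go below an exact p of 0.25 in it. Pseudocount 5, edgeR and TMM scaling changed no member's call, and TMM moved the median log2 change of all genes from 0.0248 to -0.0027.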
